A study of Mus musculus with 10 samples.

Results

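Within skin taken from male C57BL/6 mice labelled 24 months old, 2 of 5 RNA libraries held far less type I collagen messenger RNA than the other 3, and the levels of all other genes on the 2 sides are described here. The low-collagen side was every 24 months library with Col1a1, the gene of the alpha 1 chain of type I collagen, under 500 CPM (read counts brought to the same library total). Replicates 1 and 2 met that rule with 113 and 117 CPM, while replicates 3, 4 and 5 stood at 1168, 980 and 1436 CPM, so that no library lay near the limit. The series holds 10 libraries in all. The remaining 5 came from male C57BL/6 skin labelled 9 months old, where Col1a1 ranged from 1970 to 3056 CPM, and they serve here as an outside comparison. The mice carried no stated treatment or mutation. The labels say 9 months, whereas the design text has 2 months for the younger mice, and this doubt applies to every statement on them. Every library was taken as a separate mouse from the number in its title, although the labels do not say so in words. The sources used here give no body site, hour of collection or hair cycle stage.

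Fibroblasts of the dermis secrete the collagens that give skin its tensile strength, together with fibronectin, the microfibrils and elastic fibres that let skin recoil, and small proteoglycans that space the fibrils. Procollagen is folded and hydroxylated in the endoplasmic reticulum, trimmed outside the cell and cross-linked by lysyl oxidases. Below the dermis lies a layer of white fat, and skin also holds epidermis, hair follicles, vessels, nerves, immune cells and, in mice, a thin sheet of muscle. In bulk tissue, fewer cells of a type and less RNA per cell cannot be told apart.

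Because Col1a1 chose the sides, every comparison between them is a description without a test, and the comparison holds only 2 libraries on the low-collagen side. Libraries were scaled with TMM (trimmed mean of M values), and levels are CPM after that scaling. A log2 ratio is that of the mean CPM of the low-collagen pair over the mean of the other 3 libraries, with 0.5 CPM added to both. Sides are said not to overlap where both low-collagen libraries lie beyond all 3 others. Total counts were 31.6 and 35.3 M in the pair, where M stands for mega, against 38.3 to 40.8 M in the other 24 months libraries and 29.3 to 56.0 M at 9 months. Mitochondrial genes took 3.88% and 2.47% of the counts in the pair, against 3.33% to 3.79% in the others. Of 47729 genes in the table, 17668 passed the filter on low counts, and their median log2 ratio was 0.01. Among the 9 months libraries, replicates 4 and 5 stood apart in genes of growing hair, with summed levels of 12989 and 36111 CPM, against 86.2 to 455 CPM in the other 3, and the ranges at 9 months below cover all 5. The same 2 libraries of 24 months stood lowest by Col1a2, Col3a1 and Sparc, and also by Col1a1 after TMM scaling.

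Of the 17668 genes, 228 (1.29%) were past 2-fold higher in the low-collagen pair with sides that did not overlap, and 308 (1.74%) were past 2-fold lower, which makes 536 (3.03%) in either direction. Without the fold limit, 2845 genes (16.1%) were higher and 2803 (15.9%) lower with sides that did not overlap. Counts of list members without overlap, given below, are to be read against these shares. Most of the genes past 2-fold also stood apart from the younger skin. Of the 228 higher genes, 185 lay above all 8 other libraries in both members of the pair, and of the 308 lower genes, 225 lay below all 8. Over all genes tested, 1118 (6.33%) lay above and 1057 (5.98%) below in this way, all of them among the 2845 and 2803 without overlap. The genes past 2-fold were already chosen to lie beyond 3 of these 8 libraries. A share higher than that over all genes was thus partly fixed by the choice. Between single libraries, 1320 genes differed past 2-fold between the 2 members of the pair, more than the 347 to 466 genes between any 2 of the other 3, and 785 to 1582 genes differed between a library of each side. Leaving out replicate 1 gave 263 higher and 571 lower genes past 2-fold without overlap, and leaving out replicate 2 gave 722 and 510, so that the counts depend on which of the 2 stands for the pair. Values of both libraries of the pair are therefore given for most genes described.

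**Figure D1:**
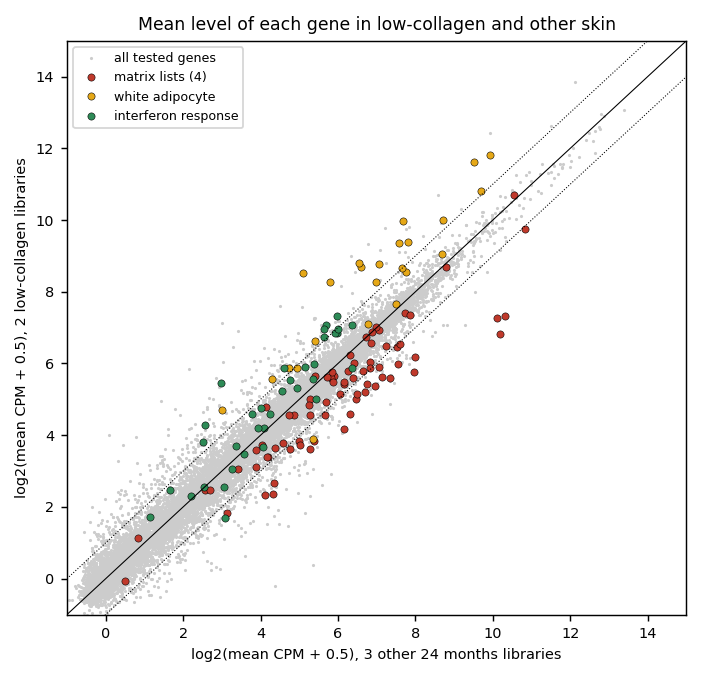
Each point is 1 of the 17668 genes, with log2(mean CPM + 0.5) in the other 3 libraries of 24 months on the x axis and in the 2 low-collagen libraries on the y axis. The solid line marks equal levels and the dotted lines mark 2-fold. Red points are members of 4 matrix lists, most of them under the line, while the white adipocyte (yellow) and interferon response (green) lists lie mostly above it.

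Matrix genes beyond the collagens were lower in both low-collagen libraries, among them fibronectin, fibrillin and the lysyl oxidases. Fn1, the gene of fibronectin (ENSMUSG00000026193, chromosome 1, 71585520 to 71653200, minus strand, GRCm38), had 137 and 129 CPM in the low-collagen pair, against 737, 583 and 547 CPM in the other 3 libraries and 473 to 744 CPM at 9 months. The pair lay far under all 8 other libraries, which overlapped each other across the ages, and the log2 ratio was -2.22. Fbn1, which encodes fibrillin 1, the backbone of microfibrils (ENSMUSG00000027204, chromosome 2, 125300594 to 125507993, minus strand), had 55.2 and 53.4 CPM in the pair, against 281, 222 and 251 CPM in the others and 186 to 288 CPM at 9 months. Its log2 ratio was -2.20, and again the other old skin sat within the range of the young. Mfap5 and Mfap4, which encode microfibril-associated proteins, had log2 ratios of -1.56 and -1.68 without overlap. Eln, the gene of elastin, named after its values were seen, stood at 38.9 and 49.9 CPM in the pair, against 69.5, 77.8 and 64.6 CPM in the others, a log2 ratio of -0.66.

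Of the 17 tested genes of the elastic fibre list, 14 were lower and 1 higher in the pair with sides that did not overlap, with a median log2 ratio of -0.77, against 0.01 over all genes. The 1 higher gene was Ltbp2, which encodes a latent TGF-beta binding protein. Named after its values were seen, it stood at 31.1 and 23.4 CPM in the pair, against 16.6, 18.5 and 16.2 CPM in the others. All 14 lower genes lay under all 8 other libraries. The 10 tested small leucine-rich proteoglycans had a median of -1.09, with 7 lower and 1 higher. Lum, encoding lumican, which binds collagen fibrils, stood at 67.1 and 28.2 CPM in the pair, against 159, 115 and 208 CPM in the others and 185 to 218 CPM at 9 months. Ogn, encoding osteoglycin, had a log2 ratio of -1.56 and Bgn, encoding biglycan, of -1.08. Matricellular genes, which include Sparc, had 10 of 18 lower and none higher, with a median of -0.68. Fbln1 and Fbln2, encoding fibulins that bind fibronectin and microfibrils, had ratios of -1.32 and -1.10.

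Genes that fold, secrete, trim and cross-link collagen had 20 of 29 lower and none higher, with a median of -0.73. Loxl1, the lysyl oxidase of elastic fibres (ENSMUSG00000032334, chromosome 9, 58287738 to 58313186, minus strand), had 20.4 and 14.5 CPM in the pair, against 78.6, 67.1 and 68.1 CPM in the others and 56.7 to 79.4 CPM at 9 months. Loxl2, a related oxidase, stood at 4.59 and 4.68 CPM in the pair, against 23.5, 14.7 and 20.5 CPM in the others. Both lay under all 8 other libraries, and the log2 ratio of Loxl2 was -1.97. Serpinh1, the collagen chaperone HSP47, had 82.8 and 60.5 CPM in the pair, against 291, 192 and 273 CPM in the others, and Creb3l1, a transcription factor that drives collagen secretion, had 11.5 and 12.1 CPM, against 41.5, 33.6 and 40.0 CPM. The general secretory machinery was closer to level, with 12 lower, 2 higher and a median of -0.17 among 27 genes of the secretory pathway and unfolded protein response. Of the 20 tested collagen chains, Col1a1 among them, 12 were lower and none higher, and Col5a1, which helps start fibrils, had 43.6 and 38.1 CPM in the pair, against 151, 109 and 110 CPM in the others.

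**Figure D2:**
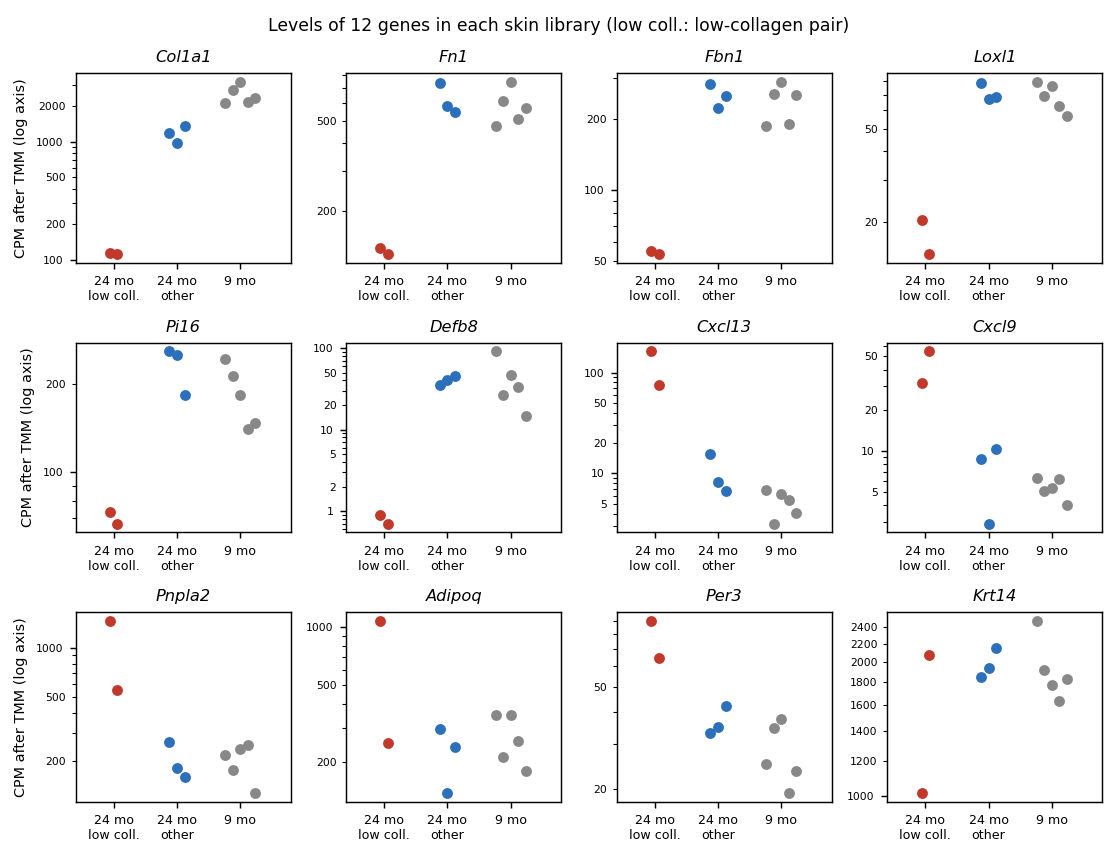
CPM after TMM scaling on log axes for 12 genes, 1 point per library, with the low-collagen pair of 24 months (red), the other 3 libraries of 24 months (blue) and the 5 of 9 months (grey). Col1a1 set the sides. For Fn1, Fbn1, Loxl1, Pi16 and Defb8 the pair lies under all 8 other libraries, for Cxcl13, Cxcl9, Pnpla2 and Per3 above all 8, and for Adipoq and Krt14 replicate 1 alone stands apart.

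Markers of fibroblasts themselves were lower as well. Pi16, which marks adventitial and fascial fibroblasts in mice (ENSMUSG00000024011, chromosome 17, 29317680 to 29330593, plus strand), had 73.4 and 66.9 CPM in the pair, against 258, 251 and 183 CPM in the others and 140 to 242 CPM at 9 months. Dpp4, a surface peptidase of the same cells, had 35.6 and 35.5 CPM in the pair, against 89.6, 79.7 and 81.1 CPM in the others. Neither gene overlapped between the sides, and both lay under the young skin too. Over the fibroblast identity list, 15 of 24 genes were lower and none higher, with a median of -0.63, and 14 of them lay under all 8 other libraries. The summed level of the list was 5426 and 4606 CPM in the pair, against 7171, 6060 and 6501 CPM in the others, while the 9 months libraries ranged from 4799 to 7818 CPM and overlapped the pair. Cd248, encoding endosialin of stromal cells, belongs to no list and had 26.0 and 21.3 CPM in the pair, against 132, 122 and 96.4 CPM in the others. The muscle of vessel walls was less affected, with 5 of 15 myofibroblast and smooth muscle genes lower, 1 higher and a median of -0.29.

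Signals and enzymes that act on the matrix also leaned lower. In the TGF-beta list, a pathway that drives matrix synthesis, 8 of 17 genes were lower and none higher, none of them past 2-fold, with a median of -0.38. Tgfb3, a ligand, stood at 16.5 and 17.2 CPM in the pair, against 33.4, 31.9 and 29.7 CPM in the others; Smad3, which carries the signal to the nucleus, stood at 35.0 and 34.6 CPM, against 74.2, 73.0 and 59.8 CPM. Among matrix proteases and their inhibitors, 13 of 23 were lower and 3 higher, with a median of -0.68. The gelatinase inhibitor gene Timp2 had 461 and 385 CPM in the pair, against 767, 787 and 908 CPM in the others. Mmp11, encoding stromelysin 3, went the other way with 38.8 and 59.3 CPM in the pair, against 6.94, 11.0 and 20.8 CPM in the others and 8.47 to 22.3 CPM at 9 months. In the IGF axis, 3 binding protein genes were past 2-fold lower: Igfbp5 had 293 and 216 CPM in the pair, against 793, 784 and 635 CPM in the others, and Igfbp2 and Igfbp6 had ratios of -1.79 and -1.18. The list as a whole was split, with a positive log2 ratio in 7 of 16 genes and a median of -0.02, which was 0.15 without replicate 2 and 0.07 without replicate 3.

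**Figure D3:**
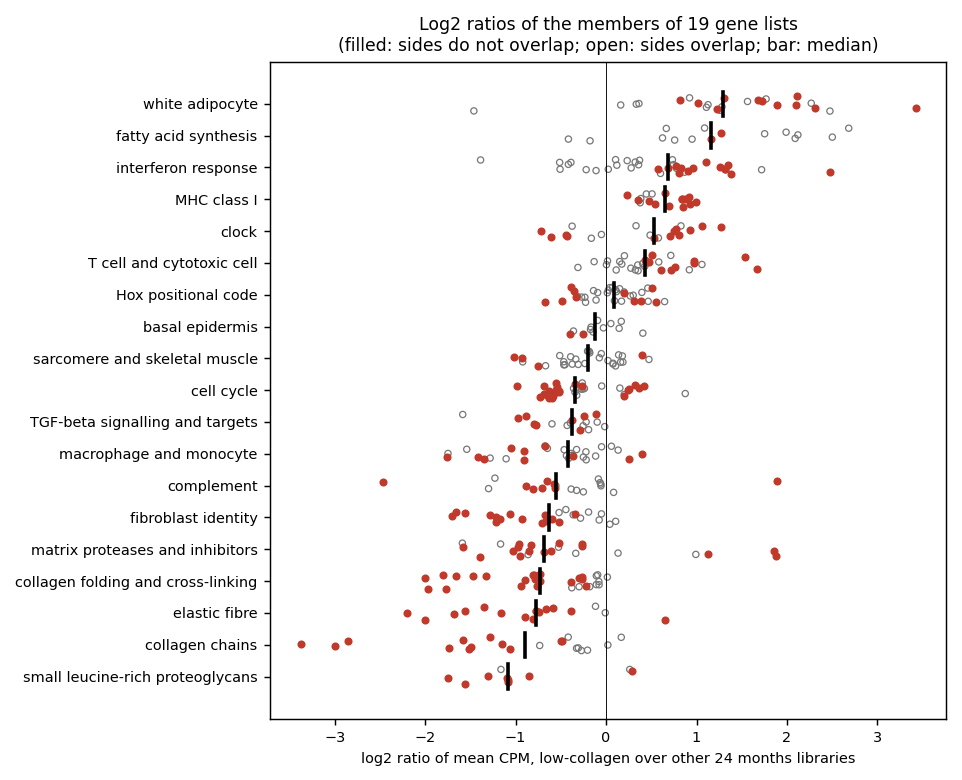
Log2 ratios of mean CPM, low-collagen pair over the other 3 libraries of 24 months (x axis), for the tested members of 19 gene lists (rows). Filled red points have sides that do not overlap, open points have sides that overlap, and bars mark the list medians, which run from 1.29 in white adipocyte genes to -1.09 in small leucine-rich proteoglycans.

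Several of the widest gaps on the lower side lay outside the matrix. Defb8, a beta-defensin gene of a family of small antimicrobial peptides (ENSMUSG00000031471, chromosome 8, 19445769 to 19447606, minus strand), had 0.90 and 0.70 CPM in the pair, against 35.4, 40.1 and 44.8 CPM in the others and 14.6 to 91.1 CPM at 9 months. Its raw counts were 28 and 26 in the pair, against 1414, 1549 and 1865 in the others. The log2 ratio of -4.96 was the largest in size among the 30 genes outside the collagen list that were chosen by the width of the gap between the sides. Beta-defensin genes resemble one another, and the sources used here do not say how reads shared by copies were counted. An uncharacterised gene, 9130204L05Rik (chromosome 3, 91088137 to 91090803, minus strand), named after its values were seen, had 0.45 and 0.30 CPM in the pair, against 15.8, 22.9 and 22.3 CPM in the others and 4.42 to 33.1 CPM at 9 months. Serpinb6d, a gene of the serine protease inhibitor family, had 1.73 and 0.35 CPM in the pair, against 11.4, 11.6 and 11.9 CPM in the others and 2.96 to 13.3 CPM at 9 months. In all 3 genes the pair lay under all 8 other libraries.

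C7, a late component of the complement cascade, stood at 30.5 and 27.5 CPM in the low-collagen pair, against 122, 131 and 234 CPM in the other 3 libraries and 40.6 to 159 CPM at 9 months. Over 19 complement genes, 7 were lower and 1 higher, with a median of -0.55. Sult1e1, which inactivates oestrogens by sulfation, had 3.44 and 2.24 CPM in the pair, against 21.2, 14.5 and 24.0 CPM in the others. Saa3, an acute-phase serum amyloid gene, had 2.60 and 6.92 CPM in the pair, against 45.7, 24.2 and 22.8 CPM in the others, but young skin ranged from 1.80 to 16.8 CPM and overlapped the pair. Among the remaining genes chosen by the width of the gap, Cpz, encoding a carboxypeptidase of the matrix, had a log2 ratio of -2.63, Arsi, encoding an arylsulfatase, of -2.54, Lgi2 of -2.29, Gdf11, a growth factor gene of the TGF-beta superfamily, of -2.17, and Fcrls, encoding an Fc receptor-like protein of macrophages, of -2.11.

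Macrophage genes leaned lower with much overlap. Of 30 tested, 8 were lower and 2 higher without overlap, against 15.9% and 16.1% over all genes, and the median was -0.43. Retnla, a marker of alternatively activated macrophages in mice, stood at 142 and 125 CPM in the pair, against 604, 309 and 440 CPM in the others and at least 281 CPM at 9 months. Folr2, which marks resident tissue macrophages, stood at 25.8 and 13.8 CPM in the pair, against 77.7, 35.8 and 47.1 CPM in the others. The summed level of the list was 2304 and 1434 CPM in the pair, against 3762, 1851 and 2652 CPM in the others and 1731 to 2878 CPM at 9 months, so that the sums overlapped. Ptprc, the pan-leukocyte gene of CD45, overlapped too, with 105 and 50.7 CPM in the pair, against 136, 60.1 and 77.6 CPM in the others.

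On the higher side, 3 chemokine genes of lymphocytes stood out, although the chemokine list as a whole did not. Cxcl13, which attracts B cells (ENSMUSG00000023078, chromosome 5, 95956951 to 95961068, plus strand), reached 162 and 74.9 CPM in the low-collagen pair, against 15.7, 8.32 and 6.66 CPM in the other 3 libraries and 3.19 to 6.80 CPM at 9 months. Cxcl9, which interferon gamma induces and which attracts T cells (ENSMUSG00000029417, chromosome 5, 92321347 to 92328079, minus strand), reached 31.9 and 54.5 CPM in the pair, against 8.71, 2.90 and 10.4 CPM in the others and 3.97 to 6.28 CPM at 9 months. Ccl5, made by T and natural killer cells, stood at 19.1 and 12.2 CPM in the pair, against 7.21, 2.46 and 4.13 CPM in the others. All 3 lay above all 8 other libraries in both members of the pair, with log2 ratios of 3.47, 2.48 and 1.67. Only 3 of 24 chemokine genes were higher without overlap and 1 was lower, against 16.1% and 15.9% over all genes. The median of the list was -0.10.

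T cell genes were modestly higher, with 11 of 29 higher, none lower and a median of 0.43, and 9 of the 11 lay above all 8 other libraries. Cd4, the coreceptor of helper T cells, stood at 7.71 and 5.05 CPM in the pair, against 2.13, 1.37 and 2.12 CPM in the others and 0.81 to 1.33 CPM at 9 months. Lck, the kinase bound to that coreceptor, stood at 14.6 and 9.57 CPM in the pair, against 6.26, 5.62 and 5.86 CPM in the others. The general T cell markers Cd3e and Cd3g overlapped, with replicate 5 highest in both. Cd3e had 8.67 and 9.08 CPM in the pair, against 6.03, 7.75 and 10.0 CPM in the others. Cd3g had 15.8 and 13.6 CPM in the pair, against 8.79, 11.7 and 17.6 CPM in the others. The summed level of the list was 204 and 170 CPM in the pair, against 138, 114 and 150 CPM in the others and 81.5 to 137 CPM at 9 months, with no overlap. B cell genes differed mainly in replicate 1. Cd79a, part of the B cell receptor, had 44.0 and 12.2 CPM in the pair, against 9.89, 9.64 and 1.73 CPM in the others, while Ms4a1, which encodes CD20, had 93.0 and 18.0 CPM in the pair, against 15.9, 24.3 and 2.31 CPM in the others and overlapped. In the B cell list 7 of 29 genes were higher and 3 lower without overlap, against 16.1% and 15.9% over all genes. The summed level of that list overlapped between the sides, with 2540 and 1510 CPM in the pair, against 2138, 1065 and 929 CPM in the others. Of 16 tested genes of lymphoid aggregates and lymph node stroma, 4 were higher and none lower without overlap, all 4 past 2-fold and above the 8 other libraries, with a median of 0.07. They were Cxcl13, the cytokine genes Lta and Ltb and the receptor gene Cxcr5, the last 3 named after their values were seen. Ltb had 23 and 5.54 CPM in the pair, against 4.76, 5.13 and 3.75 CPM in the others, and Cxcr5 had 22.2 and 9.06 CPM, against 8.04, 8.45 and 1.51 CPM, so that replicate 1 stood far above and replicate 2 only just above the others. The summed level of the list was 627 and 351 CPM in the pair, against 397, 318 and 271 CPM in the others, and overlapped. Genes of lymph node vessels and follicular dendritic cells were too low to test, with at most 2 counts of Glycam1 and Madcam1 in any library and with 10 and 7 counts of Cr2 in the pair, against 8 to 10 in the others. Ccl21a was listed at 0 in every library, but it has near-identical copies whose reads may not have been counted. The part of lymphoid tissue in these values was not tested.

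Genes of the interferon response leaned higher, by more in replicate 2 than in replicate 1. Of 35 tested, 14 were higher and none lower without overlap, 7 of them past 2-fold, and the median was 0.68. All 14 lay above the 8 other libraries. The summed level of the list was 1186 and 2222 CPM in the pair, against 1429, 602 and 960 CPM in the others, and overlapped. Igtp, an immunity-related GTPase of the interferon gamma response, stood at 92.0 and 175 CPM in the pair, against 57.6, 34.1 and 61.4 CPM in the others and 16.9 to 35.8 CPM at 9 months. Gbp4, a guanylate-binding protein gene, stood at 42.3 and 73.6 CPM in the pair, against 25.8, 19.5 and 26.2 CPM in the others, and Gbp6 had a log2 ratio of 1.32. For Igtp, replicates 3 and 5 lay between the pair and the young skin, and replicate 4 within the range of the young. Outside the list, interferon-inducible genes of the Ifi200 family, named after their values were seen, were lower in the pair on average: Ifi205 had a log2 ratio of -2.14 with sides that just failed to overlap, while Ifi211 had -1.54, Ifi204 -1.29 and Ifi203 -0.86 with overlap. Members of the Ifi200 and guanylate-binding families share sequence, so the split of reads between them is uncertain. Antigen presentation by class I molecules was higher in 13 of 17 genes and lower in none, although none reached 2-fold, and the median was 0.65. Psmb8, a subunit of the immunoproteasome, had 122 and 151 CPM in the pair, against 80.8, 57.2 and 76.8 CPM in the others, and Tap1, the peptide transporter gene, had 264 and 479 CPM, against 195, 187 and 177 CPM. The median of 12 class II genes was 0.03, and none of them differed without overlap.

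The interferon-stimulated response element, bound by interferon-activated factors, is a tandem repeat of a short core in the promoters of many of these genes. To show where its letters lie, 300 bases of promoter are given for Cxcl9 and Igtp, 250 before and 50 after the RefSeq start (GRCm38.p6, 5′ to 3′ on the gene's strand), with the match in capitals. The windows are chr5:92328030-92328329 on the minus strand for Cxcl9 and chr11:58199306-58199605 on the plus strand for Igtp.
Cxcl9: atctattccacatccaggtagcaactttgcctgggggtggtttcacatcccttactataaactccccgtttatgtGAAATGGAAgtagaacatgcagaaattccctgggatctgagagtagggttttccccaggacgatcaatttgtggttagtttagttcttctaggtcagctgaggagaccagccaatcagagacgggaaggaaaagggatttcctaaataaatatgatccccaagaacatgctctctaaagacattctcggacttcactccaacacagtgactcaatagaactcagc
Igtp: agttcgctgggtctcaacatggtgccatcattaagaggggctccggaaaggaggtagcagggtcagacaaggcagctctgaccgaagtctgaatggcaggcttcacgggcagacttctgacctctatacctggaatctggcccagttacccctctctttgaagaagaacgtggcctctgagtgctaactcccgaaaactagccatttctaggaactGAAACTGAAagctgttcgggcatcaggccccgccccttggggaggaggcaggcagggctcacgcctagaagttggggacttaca
The letters searched were TTCNNTTTC on both strands, where N is any base. They occurred in 8.32% of 19391 mouse promoters of this length and in 20 of the 26 (76.9%) interferon response genes with a promoter in the RefSeq table. They occurred in 8 of the 10 (80%) that were higher in the pair without overlap, a share near that of the whole list. None of the 16 collagen chain promoters in the table held them, and at the share over all promoters few would. A match is a description of the letters and no measure of binding.

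Among clock genes, repressors and output genes were higher in the pair and several activators lower. Per3, a repressor of the circadian clock (ENSMUSG00000028957, chromosome 4, 151003652 to 151044665, minus strand), had 89.9 and 64.3 CPM in the pair, against 33.0, 34.8 and 42.1 CPM in the others and 19.3 to 37.5 CPM at 9 months. Dbp, an output gene of the clock, stood at 44.7 and 17.7 CPM in the pair, against 11.3, 12.8 and 13.9 CPM in the others. Per1 had 210 and 194 CPM in the pair, against 140, 95.8 and 116 CPM in the others and 37.2 to 73.0 CPM at 9 months, and Tef had a log2 ratio of 0.75. Of 19 clock genes, 8 were higher and 4 lower without overlap, and the median was 0.53, or 0.72 in replicate 1 and 0.23 in replicate 2. All 8 higher genes lay above the 8 other libraries. The 4 lower ones, named after their values were seen, were the activators Arntl, Clock and Rora and the transcriptional repressor Nfil3, with log2 ratios from -0.72 to -0.43. Glucocorticoid and fasting response genes had 6 of 20 higher and 3 lower without overlap, against 16.1% and 15.9% over all genes. The median of that list was 0.15. Fkbp5, a target of the glucocorticoid receptor, had 182 and 120 CPM in the pair, against 86.5, 69.8 and 84.1 CPM in the others. At 9 months Fkbp5 ranged from 41.2 to 53.9 CPM. Txnip, a regulator of glucose uptake, had 1348 and 1196 CPM in the pair, against 725, 684 and 318 CPM in the others. The part of the unknown hour of collection in these values was not tested.

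The E-box CACGTG is the site that the clock activators bind in front of Per, Dbp and related genes. Promoters of the same window are given for Tef (chr15:81802423-81802722, plus strand) and Ciart (chr3:95882179-95882478, minus strand), a repressor of the clock that was named for its promoter and had 10.5 and 6.41 CPM in the pair, against 3.66, 4.25 and 4.74 CPM in the others. Capitals mark the E-box.
Tef: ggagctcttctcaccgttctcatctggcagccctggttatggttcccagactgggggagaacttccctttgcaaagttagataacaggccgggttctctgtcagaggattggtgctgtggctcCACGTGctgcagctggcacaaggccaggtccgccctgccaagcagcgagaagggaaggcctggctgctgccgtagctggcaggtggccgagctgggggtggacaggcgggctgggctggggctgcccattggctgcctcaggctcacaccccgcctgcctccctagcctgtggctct
Ciart: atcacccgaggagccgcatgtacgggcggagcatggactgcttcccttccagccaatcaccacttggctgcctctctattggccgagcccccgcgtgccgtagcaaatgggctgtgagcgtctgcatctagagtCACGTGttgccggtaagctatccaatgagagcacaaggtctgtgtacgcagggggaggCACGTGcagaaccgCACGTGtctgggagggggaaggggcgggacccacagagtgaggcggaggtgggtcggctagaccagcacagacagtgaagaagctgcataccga
CACGTG, which reads the same on both strands, occurred in 7.79% of the 19391 promoters, in 5 of 16 clock genes with a promoter in the table, and in 3 of the 7 that were higher in the pair without overlap.

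Fat genes were higher, chiefly in replicate 1. Pnpla2, which encodes the lipase that starts the breakdown of stored fat (ENSMUSG00000025509, chromosome 7, 141455198 to 141460743, plus strand), reached 1464 and 550 CPM in the pair, against 265, 182 and 161 CPM in the others and 128 to 252 CPM at 9 months. Aqp7, the glycerol channel of adipocytes, had 32.6 and 18.1 CPM in the pair, against 9.62, 7.96 and 5.10 CPM in the others, and Pck1, needed for glycerol synthesis in fat, had 610 and 120 CPM, against 69.1, 17.9 and 13.7 CPM. Adipoq, the adipocyte hormone adiponectin, overlapped, with 1078 and 252 CPM in the pair, against 296, 139 and 240 CPM in the others. Of 24 white adipocyte genes, 11 were higher and none lower without overlap, 10 of them past 2-fold. Their summed level was 25239 and 6936 CPM in the pair, against 7005, 4206 and 4924 CPM in the others and 4542 to 7855 CPM at 9 months, so that replicate 2 lay among the other libraries. Fatty acid synthesis had a median of 1.16, but it was 1.75 in replicate 1 and -0.67 in replicate 2. Its summed level was 49280 and 3868 CPM in the pair, against 10386, 5910 and 6768 CPM in the others. Replicate 2 was thus the lowest of the 24 months libraries. Only 2 of the 15 genes were free of overlap. One of them was Acacb, an acetyl-CoA carboxylase gene, with 585 and 421 CPM in the pair, against 260, 236 and 176 CPM in the others.

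Further genes on the higher side were chosen by the width of the gap between the sides. Fam13a, a gene tied to fat distribution in human genetics, had 273 and 110 CPM in the pair, against 32.9, 35.0 and 32.0 CPM in the others and 11.3 to 24.2 CPM at 9 months. Slc27a1, which encodes the fatty acid transporter FATP1, had 760 and 387 CPM in the pair, against 145, 136 and 124 CPM in the others. Rbp7, a retinoid-binding protein gene of adipose tissue and its endothelium, had 34.6 and 28.6 CPM in the pair, against 6.74, 5.99 and 6.30 CPM in the others. None of the 3 overlapped, and in Rbp7 the 2 members of the pair were close together. Car4, a membrane-bound carbonic anhydrase gene of capillaries, had 17.1 and 14.1 CPM in the pair, against 3.68, 2.13 and 1.87 CPM in the others, and Btnl9, a butyrophilin-like gene of endothelium, had 20.3 and 15.2 CPM, against 5.78, 3.52 and 2.91 CPM. Gpihbp1 and Cd300lg, which are expressed by capillary endothelium and were named after their values were seen, had log2 ratios of 1.52 and 1.32 without overlap. The wider blood endothelium list showed less, with 4 of 19 genes higher and 1 lower without overlap, against 16.1% and 15.9% over all genes. Its median was 0.19. Pecam1 overlapped, with 146 and 142 CPM in the pair, against 146, 115 and 86.5 CPM in the others. The remaining higher genes were Gstt2, Ces1f, Zc3h6, Hrct1, Acsm3, Arxes2, Cyp2e1 and Serpina3g, with log2 ratios from 1.41 to 3.71. In Ces1f, Acsm3 and Arxes2, replicate 1 alone stood far above the other 4 libraries, and replicate 2 lay nearer to them: Arxes2 had 102 and 13.2 CPM in the pair. Of these, Ces1f and Serpina3g belong to families of near-identical copies and are uncertain.

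Several other compartments of skin separated the sides little on average, although the 2 members of the pair parted in some. Basal epidermis had list medians of -0.53 in replicate 1 and 0.23 in replicate 2, and differentiated epidermis -0.73 and 0.01. Sarcomere genes had -0.03 and -0.55, and nuclear oxidative phosphorylation 0.46 and -0.15. Of 12 basal epidermis genes, 2 were lower without overlap, none past 2-fold, and the median was -0.12. Krt14, the keratin of basal cells, stood at 1015 and 2075 CPM in the pair, against 1853, 1943 and 2156 CPM in the others, with replicate 1 alone below the rest. Of 30 genes of the sarcomere, 3 were lower and 1 higher; Acta1, the actin of skeletal muscle, stood at 8769 and 8462 CPM in the pair, against 12174, 12589 and 7229 CPM in the others. None of 17 Schwann cell genes and none of 27 nuclear genes of oxidative phosphorylation were free of overlap. In the Hox list, whose genes record body position, 5 of 33 genes were higher and 5 lower, none past 2-fold, with a median of 0.09. Hoxb8 stood at 6.36 and 5.84 CPM in the pair, against 3.76, 4.15 and 4.13 CPM in the others, and En1, a transcription factor gene that marks a fibroblast lineage of dorsal skin in mice, at 1.54 and 1.89 CPM, against 2.73, 3.08 and 3.29 CPM. The part of the unknown body site in the other values was not tested.

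Genes of growing hair leaned higher, chiefly in replicate 2. Of 24 tested, 7 were higher and none lower without overlap, 2 of them past 2-fold, with a median of 0.50, but the median was -0.08 in replicate 1 and 0.87 in replicate 2. Their summed level was 70.2 and 167 CPM in the pair, against 89.0, 81.2 and 97.6 CPM in the others, so that the 2 members of the pair were the lowest and the highest of the 5.

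Most genes of the cell cycle list that differed were lower in the pair, by small margins. Mki67, a marker of cycling cells, had 33.6 and 26.8 CPM in the pair, against 47.0, 51.0 and 48.6 CPM in the others and 39.7 to 224 CPM at 9 months. Kif23, a motor of cell separation, had 11.2 and 8.14 CPM in the pair, against 20.6, 17.9 and 20.6 CPM in the others. Of 34 cell cycle genes, 17 were lower without overlap, 16 of them under all 8 other libraries. Another 6 were higher without overlap, namely Mcm2 to Mcm7 of the replicative helicase, with log2 ratios from 0.20 to 0.42, named after their values were seen. None of the 34 reached 2-fold, and the median was -0.34. Outside the list, the mitosis genes Aspm and Cenpf, named after their values were seen, were past 2-fold lower without overlap, with log2 ratios of -1.31 and -1.11.

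The 2 low-collagen libraries were alike in some gene lists and parted in others. Against the 3 other libraries, elastic fibre genes had medians of -0.80 in replicate 1 and -0.74 in replicate 2, lymphatic endothelium -0.44 and -0.44, and cytosolic ribosomal proteins 0.23 and 0.17. Small leucine-rich proteoglycans were low in both, with -0.87 in replicate 1 and -1.41 in replicate 2. White adipocyte genes, however, had medians of 1.94 in replicate 1 and 0.18 in replicate 2, and fatty acid synthesis 1.75 and -0.67. B cell genes had 1.80 in replicate 1 and -0.10 in replicate 2, whereas interferon response genes had 0.21 and 0.97 and class I genes 0.36 and 0.85. Clock genes had 0.72 in replicate 1 and 0.23 in replicate 2, complement genes -0.28 and -0.80, macrophage genes -0.18 and -0.90, and acute phase genes 0.48 and -0.40. Erythrocyte genes, a measure of retained blood, had 0.47 in replicate 1 and -2.38 in replicate 2; Hbb-bs, a beta globin gene, had 1254 and 132 CPM in the pair, against 554, 1023 and 1205 CPM in the others. The fat and B cell medians were thus high in replicate 1 alone, and the interferon difference was larger in replicate 2. Retained blood, fat and epidermis moved with single libraries, and their part in the other results was not tested.

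**Figure D4:**
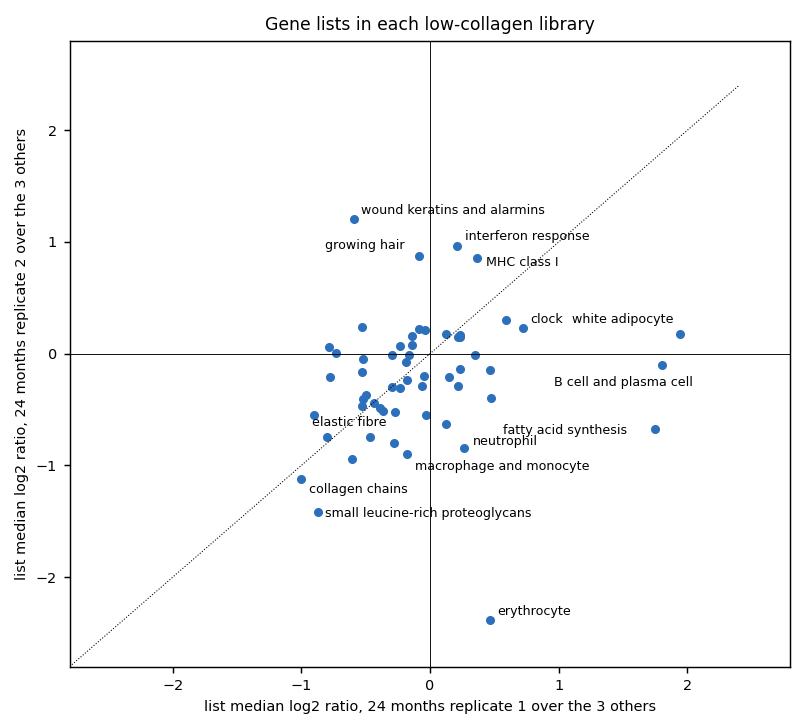
Median log2 ratio of each of 57 gene lists in 24 months replicate 1 (x axis) and in replicate 2 (y axis), each over the mean of the 3 other libraries of 24 months. Lists on the dotted line have the same median in both. Matrix lists lie at the lower left in both libraries, fat, fatty acid synthesis and B cell lists lie far to the right in replicate 1 alone, and the erythrocyte list lies at -2.38 in replicate 2.

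The pair makes up 2 of the 5 libraries of the older group, so the age comparison was read with and without it. In edgeR's quasi-likelihood test of 24 over 9 months, the adjusted p was under 0.05 in 0 of 17668 genes (0%) on the higher side and 0 (0%) on the lower, and its smallest value was 0.0909. Counted at an unadjusted p under 0.05, 1169 genes were higher and 1139 lower, together 13.1%. At an adjusted p under 0.05, limma-voom called 0 and 0, and DESeq2 called 384 higher and 387 lower of 17266 genes. Without the pair, edgeR again called 0 and 0, of 18102 genes, and 1554 (8.58%) had an unadjusted p under 0.05. Leaving the pair out selects the older libraries by Col1a1, so these values are given for description. Without 9 months replicates 4 and 5, the libraries with growing hair, edgeR called 0 higher and 1 lower of 18036 genes, the immediate early gene Fos, an alternative chosen after seeing the data.

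Fn1 had a log2 fold change of -0.45 ± 0.44 (SE) for 24 over 9 months with all libraries and 0.10 ± 0.20 without the pair (edgeR adjusted p = 0.729 and 0.930). Col1a1 itself had -1.75 ± 0.63 with all libraries (edgeR adjusted p = 0.254). Without the pair it had -1.11 ± 0.23, and all 3 remaining old libraries lay below all 5 young ones. Because Col1a1 chose the libraries left out, that smaller value and spread were partly fixed by the choice, and no test is read from them. Cxcl13 had 3.37 ± 0.89 with all libraries and 0.99 ± 0.33 without the pair (edgeR adjusted p = 0.164 and 0.502). Among gene lists, the median age difference of elastic fibre genes was -0.34 with all libraries and 0.03 without the pair, that of fibroblast identity genes -0.24 and 0.00, and that of matricellular genes -0.20 and 0.02. The collagen chains had -0.72 with all libraries and -0.45 without the pair. White adipocyte genes had 0.61 and -0.21, and fatty acid synthesis genes 0.79 and 0.04. Interferon response genes had 1.32 with all libraries and 0.98 without the pair, T cell genes 0.75 and 0.54, and clock genes 0.44 and 0.27. Fat and most matrix lists lay near or across 0 once the pair was left out, while the collagen, interferon and T cell medians kept their sign. The pair stood apart in many of these lists, and in Fn1 and Cxcl13. Part of each shift was therefore fixed by leaving the pair out. With the growing-hair libraries of 9 months left out, medians of -0.37 for elastic fibre, -0.41 for fibroblast identity, -0.67 for collagen chains, 0.48 for white adipocyte, 1.27 for interferon response and 0.59 for T cell genes were found.

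**Figure D5:**
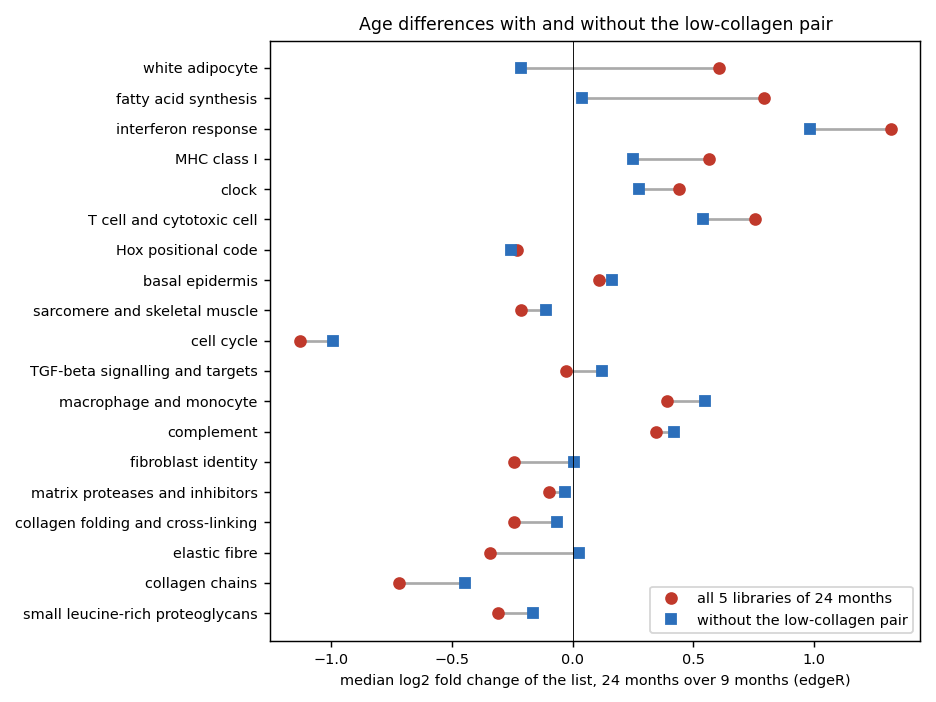
Median log2 fold change of 24 over 9 months (x axis, edgeR) for 19 gene lists (rows), with all 5 libraries of 24 months (red circles) and without the low-collagen pair (blue squares). The white adipocyte list lies at 0.61 with the pair and -0.21 without it, and the interferon response list at 1.32 and 0.98.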

How the data were processed

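RNA of 10 skin samples was prepared as multiplexed mRNA libraries, per the labels. The authors deposited a table of whole-number read counts per Ensembl gene; the tools named, without roles, in the submitters' processing notes are featureCounts 1.4.6-p4, STAR 2.4.1d and CASAVA 1.7, on build GRCm38. The sources used here give no strand setting, annotation release or handling of reads with several matches, so genes with near-identical copies and overlapping genes are uncertain. Their table of RPKM values was not used.

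Symbols and coordinates came from the GENCODE annotation of GRCm38. The filterByExpr function of edgeR 4.0.16 (R 4.3.3) kept 17668 genes. Sides within 24 months were set by Col1a1, and 57 gene lists were described by counts and medians, without a test. For 24 over 9 months, edgeR's robust quasi-likelihood F test with Benjamini-Hochberg adjustment was used, with DESeq2 1.42.0 and limma 3.58.1 (voom) as alternatives; it was tested on simulated data. The p-values set the age difference against the spread between these libraries within each age.

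Named genes were the 15 in each direction with the widest gap between the sides among non-overlapping genes with a mean of at least 5 CPM, at most 3 per list and outside the collagen list, then up to 4 members of each list described, plus fixed markers. Predicted genes and receptor segments were left out of the first part. The sides, lists and rules were chosen with earlier results of these data known. Alternatives were other scalings, a prior of 2 CPM, no filter and leaving out each library. Promoters are those of RefSeq GRCm38.p6.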

Additional observations from a re-analysis of the deposited data

Results flagged for a closer look

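Within the 5 libraries of 24 months, 276 levels were examined and in 23 of them 1 library stood apart from the other 4. The limit used marks about 1 in 20 by chance. Many of these levels were of genes chosen by their values in the same libraries, so the 23 cannot be set against that rate. Of these, 20 were in replicate 1 of the low-collagen pair, 1 in replicate 2 and 2 in replicate 5.

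In replicate 1, fat genes stood high. Adipoq was 1078 CPM, against 139 to 296 in the other 4 libraries. Pck1 was 610 CPM (others 13.7 to 120), Acsl1 1397 (346 to 540) and Arxes2 102 (2.76 to 13.2). Ces1f was 109 CPM (6.63 to 22.5), Acsm3 28.4 (2.36 to 6.54) and Kcnk3 47.5 (2.59 to 4.46). The respiratory chain genes Cox6a1 and Cox4i1 were 229 (90.5 to 106) and 532 CPM (304 to 348).

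Replicate 1 also stood high in B cell and class II genes. Cd79a was 44.0 CPM (others 1.73 to 12.2), Ltb 23 (3.75 to 5.54) and H2-Ob 25.6 (2.46 to 7.65). H2-Oa was 5.11 CPM (0.94 to 1.79) and H2-DMb2 27.7 (7.04 to 11.6). S100a8, a neutrophil calprotectin subunit, was 51.6 CPM (10.3 to 19.1), Gclm of glutathione synthesis 33.1 (19.3 to 22.8) and the clock output Dbp 44.7 (11.3 to 17.7). The same library was low in the basal keratin Krt14, with 1015 CPM (1853 to 2156), and in the desmosome gene Dsg3, with 40.9 (71.8 to 75.9). Its mean log2 level of heat shock genes was 6.28, against 6.65 to 6.78.

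In replicate 2, Tap1 of antigen peptide transport was 479 CPM (others 177 to 264). In replicate 5, Prlr was 37.6 CPM (21.5 to 25.2), and the mean log2 level of mammary and salivary gland genes was 2.02, against 1.14 to 1.36.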

How the results depend on the processing

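Another scaling (library totals or DESeq2 size factors) or no filter left between 228 and 252 genes past 2-fold higher and between 308 and 313 lower, against 228 and 308, whereas a prior of 2 CPM gave 141 and 194. Leaving out each library of 24 months in turn gave 251 to 722 higher and 302 to 571 lower genes. Without replicate 1 there were 263 higher and 571 lower genes, of which 101 and 267 were among the 228 and 308; without replicate 2 there were 722 and 510, with 197 and 240 shared. A side of 1 library overlaps less often by construction. The median of the IGF axis was -0.02 and ranged from -0.21 to 0.15 over the libraries left out, with 0.15 without replicate 2 and 0.07 without replicate 3. Over all lists and settings, 414 of the other list medians moved by less than 1 SD within the sides and 40 by more, and for the ratios of named genes these numbers were 1615 and 137. The age test called 1 gene higher with no filter on low counts, 0 to 8 higher when each library was left out (8 without 24 months replicate 4), 0 higher and 1 lower without 9 months replicates 4 and 5 together, and 384 higher and 387 lower with DESeq2; the cause was not tested. The age fold changes of named genes were counted once per gene in each alternative setting. Of these, 3469 stayed on their side of the adjusted p of 0.05 and 35 passed it only under the alternative. No paired analysis was possible because the replicate numbers follow the listing order and pair no samples. With 2 libraries on 1 side, chosen by their Col1a1, the number of libraries limits these descriptions.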

Other observations

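Further gene lists differed by small margins between the low-collagen pair and the 3 other libraries of 24 months. Cholesterol synthesis had 9 of 22 genes lower and none higher without overlap, with a median log2 ratio of -0.19. Sebaceous gland genes had 6 of 14 lower and 1 higher (median -0.36), heat shock genes 6 of 14 lower and none higher (median -0.27), and lymphatic endothelium 4 of 9 lower and none higher (median -0.33). Cytosolic ribosomal protein genes had 9 of 39 higher and none lower (median 0.19). Over all genes tested, 16.1% were higher and 15.9% lower without overlap.

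The 3 other libraries differed among themselves in early response and chemokine genes, which were named after their values were seen. Ccl7, a monocyte chemokine, was 5.72 and 8.38 CPM in the low-collagen pair, against 44.3, 6.38 and 119 CPM in the 3 others. Ccl2 was 5.07 and 9.38 CPM in the pair, against 32.1, 3.65 and 73.5. The AP-1 member Fosl1 was 2.54 and 3.65 CPM in the pair, against 39.0, 2.70 and 62.5, and Errfi1, a feedback inhibitor of the EGF receptor, was 120 and 114 CPM, against 397, 139 and 550. In each of these 4 genes replicate 4 lay near the pair, and replicates 3 and 5 were high.

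Nr4a3, an early response nuclear receptor, was 5.33 and 5.92 CPM in the pair and 45.3, 8.79 and 89.3 CPM in the others, against 2.86 to 5.94 CPM at 9 months.

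The pair also differed within itself in Krt16 and Asns, while Asns and Meg3 separated the sides. Krt16, a keratin of wounded epidermis, was 2.89 and 77.0 CPM in the pair, against 25.1, 6.92 and 18.1 CPM in the others, so that its 2 libraries were the lowest and the highest of the 5. Asns, asparagine synthetase, was 77.4 and 38 CPM in the pair, against 25.1, 21.5 and 19.4. Meg3, an imprinted noncoding RNA, was 0.61 and 1.05 CPM in the pair and 2.10, 3.14 and 2.21 CPM in the others, against 3.34 to 9.24 CPM at 9 months.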
